A study of Homo sapiens with 42 samples.

Results

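NUP210 encodes a nucleoporin that spans the nuclear membrane at the nuclear pore complex, and a 5' splice site deep inside its intron 33 was used to very different degrees across INA-6 cells. All events that carry the gene symbol NUP210 were taken from the 8 splicing tables of the study. They made up 26 of 168483 listed event entries, or 15 of 78265 distinct events. The gene was chosen by the measured PSI of the intron 33 site in the IL-6 and sgPOU2AF1 comparisons of INA-6, so those values are given as a description and no test is built on them.

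The libraries came from the human cell lines MM.1S and INA-6. Both are established lines from multiple myeloma, in which antibody-secreting plasma cells grow as a cancer. In each line, cells without IL-6 (interleukin-6, a growth factor for myeloma cells) were compared with cells given IL-6 for 24 hours. Cas9-expressing cells of both lines received by lentivirus a guide RNA (sg) against EGFP as control, POU2AF1 or ELL2, and MM.1S cells also one against SRSF1 or HNRNPL. Puromycin selection lasted 2 days. These cells were grown with IL-6, for a time that the INA-6 guide RNA labels do not give. The labels call these cells knockdown cells, and do not say how many guides or clones were used per gene. POU2AF1 coactivates transcription in B cells, ELL2 is an elongation factor of RNA polymerase II, and SRSF1 and HNRNPL are RNA-binding proteins that regulate splicing. The 42 libraries formed 14 groups of 3 libraries. No label says whether libraries of a group are from separate cultures, and p-values therefore reflect no more than the spread of these libraries, and it may be technical. Which of the 2 sequencing providers made which library is not given, so a provider batch cannot be told apart from the groups.

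Nuclear pores carry RNA and protein between nucleus and cytoplasm. They are built from many copies of the nucleoporins, arranged as a membrane ring, an outer Y-shaped scaffold, an inner ring, a central channel, cytoplasmic filaments and a nuclear basket. NUP210 belongs to the membrane ring and holds most of its mass on the lumenal side of the nuclear envelope. In mouse it is known for its part in the differentiation of muscle and neural precursors and in T cells. An alternative 5' splice site (A5SS) makes an exon end at another place, here further downstream within the intron, and an alternative 3' splice site (A3SS) makes the next exon begin elsewhere. The percent spliced in (PSI, 0 to 100) is the share of transcripts that use the alternative site. It describes the make-up of the NUP210 RNA and not its amount. In a bulk library, full use of a site in part of the cells cannot be told apart from partial use in every cell. Depth per event and per library is unknown, because the tables list no read counts.

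NUP210 lies on the minus strand of chromosome 3:13316235-13420309 (GRCh38), over 104075 nt. Its reference transcript in GENCODE release 29 has 40 exons and 39 introns. Intron 33 covers chromosome 3:13323433-13325794 (2362 nt), between exon 33 at chromosome 3:13325795-13325931 (137 nt) and exon 34 at chromosome 3:13323309-13323432 (124 nt), both coding. The alternative 5' splice site was listed as the segment chromosome 3:13325165-13325795. This extends exon 33 by 630 nt into the intron and leaves 1732 nt to exon 34. The listed segment runs 1 base past the intron, so the extension may be 631 nt, and nothing is said here of the reading frame. The exon ends that the annotated splice joins are shown to place the site that the alternative one competes with. They are written 5' to 3' on the transcript strand, as in the GENCODE release 29 transcript. Capitals mark the last 3 bases of exon 33, next to the annotated 5' splice site, and the first base of exon 34.
End of exon 33, chromosome 3:13325795-13325824: gtcgctgggcacctgaggacctacaagGAG
Start of exon 34, chromosome 3:13323403-13323432: Gtggtggtcagcgtccctcagaggatcatg

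**Figure D1:**
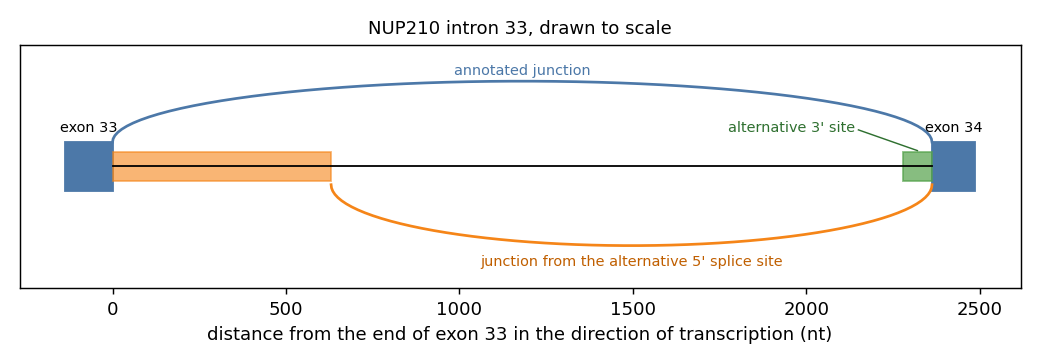
NUP210 intron 33 drawn to scale, as distance in nt from the end of exon 33 in the direction of transcription. Boxes are exons 33 and 34 (blue), the 630 nt added by the alternative 5' splice site (orange) and the 84 nt added by an alternative 3' splice site listed in MM.1S (green), and curves are the annotated junction and the junction from the alternative 5' splice site.

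The intron 33 site was used more with IL-6 and less with sgPOU2AF1 in INA-6. Without IL-6 the PSI was 16.7%, 14.2% and 14.1% in the 3 libraries (mean 15% ± 1.5, SD, n = 3). With IL-6 it was 38.9%, 36.0% and 38.9% (38.0% ± 1.7, SD, n = 3). The lowest library with IL-6 lay 19.4 points above the highest without it, and the means differed by 22.96 points. In the guide RNA experiment the 3 sgEGFP libraries had 59.5%, 60.4% and 59.5% (59.8% ± 0.49, SD, n = 3). With sgPOU2AF1 the values were 10.8%, 11% and 9.26% (10.3% ± 0.94, SD, n = 3). All 3 sgPOU2AF1 libraries thus lay far below the controls, 48.5 points apart at the nearest libraries, and the difference of means was -49.46 points.

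**Figure D2:**
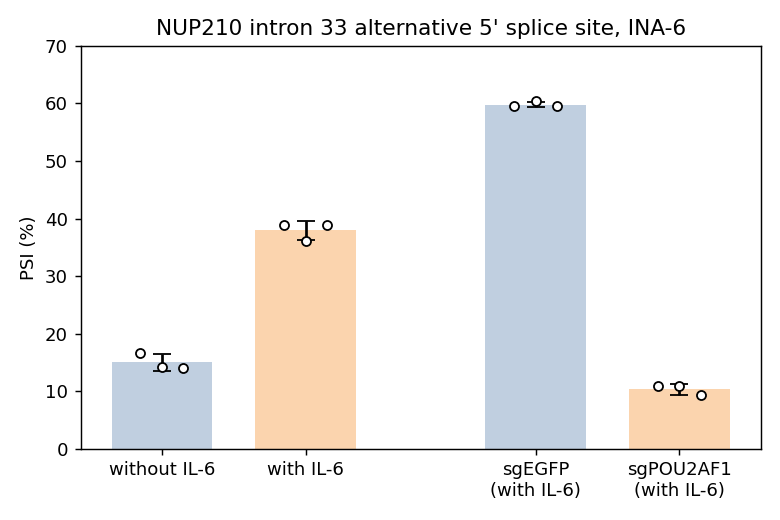
PSI in percent of the NUP210 intron 33 alternative 5' splice site in INA-6, with each library as a point, the group mean as a bar and the SD as an error bar (n = 3 libraries). The 4 groups do not overlap, running from 10.3% with sgPOU2AF1 over 15% without IL-6 and 38.0% with IL-6 to 59.8% with sgEGFP.

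The order of the 4 groups was therefore sgPOU2AF1, without IL-6, with IL-6 and sgEGFP, and no neighbours in it overlapped. The closest neighbours were sgPOU2AF1 and the cells without IL-6, 4.65 points apart in the mean and 3.12 points at the nearest libraries. The sgEGFP cells and the unmodified cells with IL-6 both had IL-6 and no targeted gene of their own. Their means nevertheless differed by 21.8 points, with 20.6 points between the nearest libraries. That gap is almost as large as the IL-6 difference itself. Over the 814 events of other genes with a p-value in both the IL-6 and the sgPOU2AF1 tables of INA-6, the median size of this gap was 1.46 points, and it was at least that of NUP210 in 4 events (0.491%). Among the 73 alternative 5' splice sites of other genes the median was 1.82 points, and 2 events (2.74%) had a gap of at least that size. These were in ABCC4 and NLK, where sgEGFP cells lay below the IL-6-treated cells and not above them as in NUP210. Both levels in the gap are among the values that chose NUP210, so nothing is read from these shares. The sgEGFP cells also carried Cas9 and a guide RNA and went through puromycin. Their time with IL-6 is not given, while that of the unmodified cells was 24 hours. The part of these differences in the gap was not tested. Levels are compared here across tables that may have been processed separately.

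Events counted as called had a p-value under 0.05 in the authors' deposited table and means at least 10 points apart. By this rule 2 of the 26 NUP210 entries were called, both of the intron 33 site. In the IL-6 table of INA-6, 12.2% of events with a p-value were called (6.3% higher with IL-6), and in that of sgPOU2AF1 the share was 10.1% (4.82% lower). Nothing is read from the 2 calls against these shares, because the values chose the gene. By size the IL-6 difference ranked 49 of 578 called events and 12 of 87 called alternative 5' splice sites. The sgPOU2AF1 difference was the largest of 736 called events in its table, ahead of an event in EBAG9 at 39.28 points.

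The site was not listed in the sgELL2 table of INA-6. That table has the same sgEGFP libraries, and it lists events with p under 0.05 or without a p, so a PSI with sgELL2 cannot be given. It was not listed in any of the 5 MM.1S tables either. The sgSRSF1 and sgHNRNPL tables of MM.1S list events whatever their p, and they hold 38 of the 87 alternative 5' splice sites called with IL-6 in INA-6 (43.7%) and 35 of the 81 called with sgPOU2AF1 (43.2%). Absence from them is thus common among such sites and gives no PSI of 0, and the lines could not be compared at this site.

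The remaining 14 distinct events of NUP210 were smaller or rarer. In all, 8 distinct events were alternative 5' splice sites and 7 alternative 3' splice sites, in 7 of the 39 introns. Intron 20 (8575 nt) held 7 of the 15. No exon skipping and no retained intron of NUP210 was listed. The alternative intron of 0 of the 15 events is annotated in GENCODE release 29. Over all events of the sgSRSF1 table, 45.3% of 6344 alternative 5' splice sites and 53.3% of 8037 alternative 3' splice sites have an annotated one. All 12 entries in intron 20 and the others outside intron 1, 20 in number without the intron 33 A5SS, had PSI of at most 3.27% in any library and differed by at most 1.88 points.

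The most used of these was an alternative 3' splice site in intron 1, listed as chromosome 3:13399862-13414112, which starts 14251 nt before exon 2. In INA-6 the sgEGFP libraries had 13.5%, 10.8% and 14.5% (12.9% ± 1.9, SD, n = 3). The sgPOU2AF1 libraries had 2.82%, 3.96% and 5.61% (4.13% ± 1.4, SD, n = 3), all below the controls with a difference of -8.79 points. The sgELL2 libraries, set against the same controls, had 7.43%, 8.83% and 9.38% (8.55% ± 1.0, SD, n = 3), also all below them, with a difference of -4.37 points. Both differences stayed under the 10 points of the call, which 10.2% of the events of the sgELL2 table passed. Because the controls are shared, the 2 decreases are not independent of each other.

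In MM.1S the same intron 1 site was used less. The sgEGFP libraries had 2.36%, 2.71% and 2.54% (2.54% ± 0.17, SD, n = 3), against 12.9% in INA-6. The difference of 10.4 points between these sgEGFP groups had an exact two-sided permutation p = 0.1, the smallest that 3 libraries against 3 allow. The groups come from separate guide RNA comparisons, and the INA-6 time with IL-6 is not given. Line and experiment therefore cannot be told apart. In MM.1S, sgSRSF1 libraries had 4.83%, 3.20% and 3.58% (3.87% ± 0.86, SD, n = 3), all above the controls, with a limma adjusted p = 0.171 over all events of the table. The sgHNRNPL libraries had 1.25%, 2.22% and 1.89% (1.79% ± 0.49, SD, n = 3), all below the same controls, with a limma adjusted p = 0.521.

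Within intron 20 a further alternative donor 7018 nt past exon 20, listed as chromosome 3:13344861-13351879, was seen in both lines at low levels. In INA-6 the sgEGFP libraries had 2.59%, 2.61% and 2.75% (2.65% ± 0.090, SD, n = 3), and the sgPOU2AF1 libraries 1.18%, 0.656% and 0.461% (0.767% ± 0.37, SD, n = 3). The sgELL2 libraries had 0.898%, 1.70% and 1.42% (1.34% ± 0.40, SD, n = 3). Both targeted groups lay below the shared controls in every library, by less than 2 points in the mean. In MM.1S the sgEGFP libraries had 2.73%, 1.61% and 1.36% (1.90% ± 0.73, SD, n = 3). The difference of 0.751 points from INA-6 sgEGFP, where line and experiment again cannot be told apart, had an exact two-sided permutation p = 0.3. With sgSRSF1 the site was at 0.110%, 0% and 0%, below all 3 controls (limma adjusted p = 0.154), and with sgHNRNPL at 0.965%, 1.17% and 1.96%, overlapping the controls (limma adjusted p = 0.742).

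**Figure D3:**
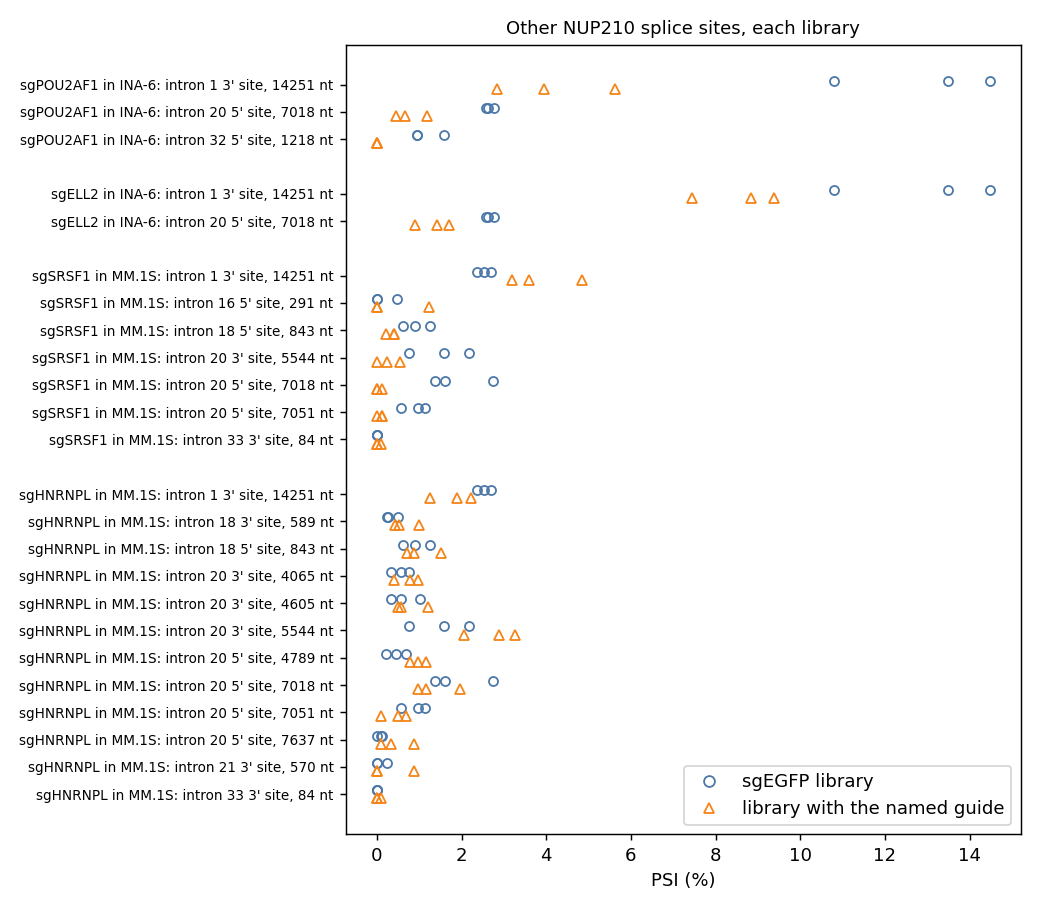
PSI in percent of every listed NUP210 event other than the intron 33 A5SS, 1 line per event and comparison, with the distance of the site from its exon in nt. Circles are the 3 sgEGFP libraries and triangles the 3 libraries with the named guide. Apart from the intron 1 site, no library is above 3.27%.

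The last NUP210 event of the INA-6 tables, an A5SS 1218 nt into intron 32 (chromosome 3:13325999-13327217), went from 0.938%, 0.938% and 1.59% with sgEGFP to 0% in all 3 sgPOU2AF1 libraries. All 5 INA-6 entries other than the intron 33 A5SS were thus lower in the targeted cells, with no overlap of libraries. These tables list only events with p under 0.05 or without a p, so the lack of overlap comes largely from how events enter them.

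With sgSRSF1 and sgHNRNPL in MM.1S no NUP210 event was called. The sgSRSF1 table held 7 NUP210 events, 3 higher and 4 lower, with differences from -1.86 to 1.34 points. Of the 6 that limma could fit, 2 had an unadjusted p under 0.05, against 23.6% of all events, and 0 had an adjusted p under 0.05, against 8.21% (limma adjusted p from 0.154 to 0.845). By limma with at least 10 points 4.11% of all events were called, and by the deposited rule 5.75%. The 3 intron 20 events listed there were all lower with sgSRSF1 in every library than in any control. The A3SS 5544 nt before exon 21 went from 2.17%, 0.751% and 1.59% to 0%, 0.227% and 0.538% (limma adjusted p = 0.323). The A5SS at 7051 nt, a near neighbour of that at 7018 nt, went from 0.569%, 0.964% and 1.14% to 0.110%, 0.114% and 0% (limma adjusted p = 0.845). These low values depend on the limit set before the logit: at 0.1% in place of 1%, the A5SS at 7018 and 7051 nt had limma adjusted p of 0.00790 and 0.0163. Over the 7 events, the libraries of the groups did not overlap in 5. The share without overlap over all events was not computed, so nothing is read from this count.

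The sgHNRNPL table held 12 NUP210 events, 9 higher and 3 lower, with differences from -0.747 to 1.24 points. Limma fitted 7 of them, with 0 unadjusted p under 0.05 (11.1% of all events), 0 adjusted p under 0.05 (0.381% of all events) and limma adjusted p from 0.475 to 0.910. Values under 1% were set to 1% before the logit, so events with every value under it could not be fitted. Differences below that limit are also lost, and these counts say little about such rare sites. At 0.1% in place of 1%, limma fitted 11 events, 1 with an unadjusted and 0 with an adjusted p under 0.05. By limma 0.234% of all events were called, and by the deposited rule 1.81%. The intron 20 A3SS at 5544 nt had 2.06%, 2.89% and 3.27% with sgHNRNPL, above the controls on average but overlapping them (limma adjusted p = 0.475). A further intron 20 A5SS, at 4789 nt, had 0.683%, 0.214% and 0.454% in the controls and 0.965%, 1.17% and 0.784% with sgHNRNPL, without overlap (limma adjusted p = 0.889). With the limit at 0.1% its limma adjusted p was 0.537. The groups did not overlap in 2 of the 12 events, a count that also lacks the share over all events and is not interpreted. These 2 comparisons share their sgEGFP libraries. An A3SS within intron 33, 84 nt before exon 34, was at 0% in the MM.1S controls and reached 0.0868% and 0.0906% in 1 library each with sgSRSF1 and sgHNRNPL. Median control PSI of the NUP210 events was 0.914% and 0.595% in the 2 tables, against 4.86% and 4.47% over all alternative 5' and 3' splice sites. The median size of the differences was 0.81 and 0.335 points, against 1.54 and 1.16.

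Among alternative 5' splice sites with a p-value in both INA-6 tables, 74 in number, the 5 whose differences lay nearest to those of NUP210 (smallest root mean square gap over the IL-6 and sgPOU2AF1 differences) belonged to 4 genes. They rose with IL-6 and fell with sgPOU2AF1 as NUP210 did, which the measure of likeness favours. ABCC4, a multidrug and nucleotide exporter, went from 84.7% ± 1.8 to 93.6% ± 1.5 with IL-6 and from 71.6% ± 5.1 to 38.9% ± 2.5 with sgPOU2AF1 (chromosome 13:95091897-95115922, SD, n = 3). MAP2K6, a kinase upstream of p38, went from 58.4% ± 2.1 to 78.2% ± 1.3 and from 66.7% ± 0.95 to 43.2% ± 5.7 (chromosome 17:69516904-69517297). NLK, a serine/threonine kinase, went from 20% ± 0 to 61.0% ± 7.6 and from 37.2% ± 3.1 to 7.20% ± 6.5 (chromosome 17:28043332-28046831), with a value in 2 of the libraries without IL-6. The kinase gene CDK14 had a pair of events with the same values, from 19.0% ± 1.4 to 34.8% ± 3.9 and from 44.0% ± 1.0 to 20.6% ± 4.2. None of these came near the size of the NUP210 difference with sgPOU2AF1, the nearest being ABCC4 at -32.75 points. NUP210 was chosen by that difference, so nothing is read from this contrast.

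**Figure D4:**
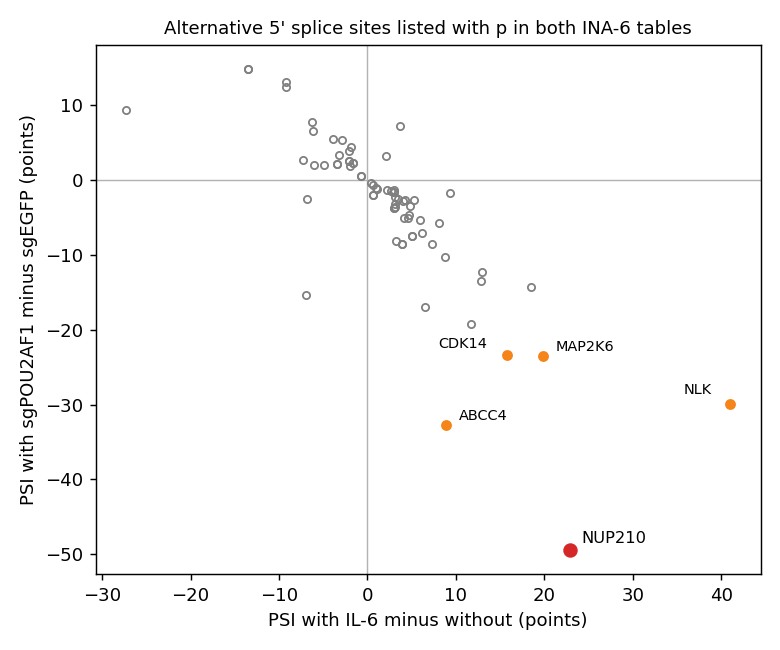
Difference in PSI (points) with IL-6 (horizontal) and with sgPOU2AF1 (vertical) for the 74 alternative 5' splice sites with a p-value in both INA-6 tables. NUP210 lies lowest at 22.96 and -49.46 points, and the 5 nearest events, of ABCC4, MAP2K6, NLK and CDK14, are named.

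The other nucleoporin genes were described from a list of 33 genes by role, NUP210 included. In all, 9 of them had a called event in at least 1 comparison, 8 besides NUP210. The counts that follow leave out NUP210, which was chosen by its values in both INA-6 tables. With sgSRSF1, 7 of 31 listed nucleoporin genes were called, against 19.6% of all genes, 5 with lower events only, 1 with higher only and 1 with both. With sgHNRNPL, 2 of 32 were called, against 7.5%. For IL-6 in INA-6 there were 2 of 11 (15.9% of genes), for sgPOU2AF1 in INA-6 1 of 13 (15.9%) and for sgPOU2AF1 in MM.1S 1 of 13 (13%). By the deposited rule 0 of 15 were called for IL-6 in MM.1S (18.7%), 0 of 5 for sgELL2 in MM.1S (12.9%) and 0 of 7 for sgELL2 in INA-6 (12.7%), although all of these genes are listed with an unadjusted p under 0.05. The median difference over nucleoporin events, those of NUP210 included, was -0.225 points with sgSRSF1 (-0.06 over all events) and 0.18 with sgHNRNPL (0.04).

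In the Y complex and on the cytoplasmic face, PSI of the events named next fell with sgSRSF1. AHCTF1, which seeds pore assembly on chromatin as ELYS, had 87.4%, 87.3% and 93.5% in the controls and 65.0%, 53.7% and 63.3% with sgSRSF1 for the exon at chromosome 1:246894659-246894748. Its difference of -28.73 points had a limma adjusted p = 0.0215. NUP88 went from 98.0% ± 0.35 to 72.8% ± 2.1 for the exon at chromosome 17:5387779-5387904 (SD, n = 3, limma adjusted p = 0.00324). SEC13, shared by the Y complex and the COPII coat, went from 81.2% ± 1.1 to 70.4% ± 1.6 (limma adjusted p = 0.0371). The nuclear basket gene NUP50 (93.6% ± 3.4 to 80.1% ± 3.9) and the RNA helicase gene DDX19B (97.2% ± 4.8 to 84.1% ± 5.1) were called by the deposited rule but had limma adjusted p of 0.0682 and 0.119. The DDX19B event overlaps AC012184.2, so its values may mix transcripts of both genes.

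NUP62, a central channel component, was called with both splicing regulators. Its exon at chromosome 19:49927694-49927815 had 40.2%, 50.1% and 41.8% in the shared MM.1S controls. With sgSRSF1 it had 23.6%, 23.9% and 26.9%, all below them (limma adjusted p = 0.0312). With sgHNRNPL it had 58.4%, 64.4% and 61.1%, all above them (limma adjusted p = 0.206). The region overlaps IL4I1 and AC011452.1, so the values may mix transcripts of several genes. POM121, which like NUP210 is a membrane nucleoporin, went from 64.4% ± 3.3 to 86.7% ± 1.9 with sgSRSF1 at a retained interval (limma adjusted p = 0.0120). That interval overlaps NSUN5P2, and POM121 has a near-identical paralog, so its reads may be split and the value is uncertain.

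In INA-6 other pore genes were called with sgPOU2AF1 and with IL-6 as well. GLE1, an mRNA export factor of the cytoplasmic face, rose from 38.7% ± 2.2 to 49.4% ± 1.8 with sgPOU2AF1 at chromosome 9:128507216-128507340. In MM.1S the same exon had 23.9% ± 2.6 with sgEGFP and 35.2% ± 1.4 with sgHNRNPL (limma adjusted p = 0.210). With IL-6, NUP50 rose from 16.7% ± 3.1 to 28% ± 1.4 at the exon at chromosome 22:45170988-45171177, and POM121 from 46.5% ± 3.0 to 58.2% ± 2.1 at an interval that overlaps NSUN5P2. In MM.1S an alternative 5' splice site of POM121 fell from 31.9% ± 2.7 to 16.1% ± 5.1 with sgPOU2AF1. NUP210 had the largest difference of any called nucleoporin event, the value by which it was chosen.

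**Figure D5:**
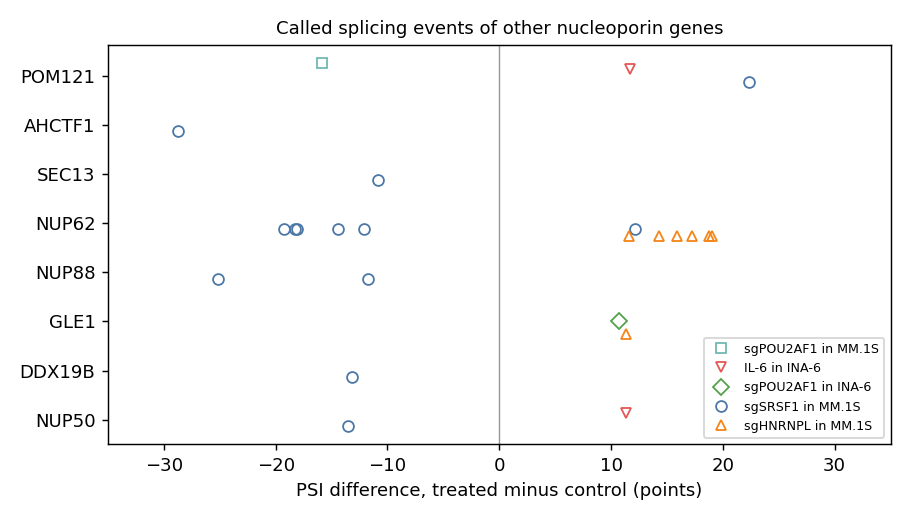
PSI difference (points, treated minus control) of the called events of the 8 nucleoporin genes other than NUP210, with the shape and colour of a symbol giving the comparison. Events of a gene with equal differences in a comparison share 1 symbol. AHCTF1 and NUP88 with sgSRSF1 lie lowest at -28.73 and -25.16 points, and the NUP62 events with sgHNRNPL all lie above 0.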

How the data were processed

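Libraries were strand-specific. Per the submitters' processing notes, STAR 2.7.10b and SAMtools 1.19.2 were used with GRCh38. Neither the splicing caller nor the annotation is named there or in the labels. The authors' deposited tables hold PSI per library and a difference score, the difference of mean PSI in points, treated minus control. The deposited p-value column is headed as a Benjamini-Hochberg FDR, but Welch's unadjusted test recomputed from the listed PSI matched it within 1% in 100% of events, so it is used as unadjusted. NUP210 and the gene lists were chosen with earlier results of these data known.

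The value headers of the INA-6 sgPOU2AF1 and sgELL2 tables say MM.1S, while the table names say INA-6. Over 2483 events the sgEGFP means of the sgPOU2AF1 table had a correlation of 0.993 with unmodified IL-6-treated INA-6 cells and 0.958 with MM.1S sgEGFP, and over 2202 events those of the sgELL2 table had 0.996 and 0.970, so both were taken as INA-6. Their sgEGFP values were identical in 99.7% of 4630 shared events. Of the targeted genes, a POU2AF1 exon at chromosome 11:111357795-111357837 went from 99.5% ± 0.082 to 91.0% ± 0.52 with sgPOU2AF1 in INA-6. PSI does not measure loss of a gene, and expression levels and marker genes of the lines were not analysed here.

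For the 2 complete tables, PSI was clipped to 1 and 99%, put on a logit scale and tested with limma 3.58.1 (R 4.3.3), over 50150 and 49622 events with at least 2 values per group, with Benjamini-Hochberg adjustment over the table. The rule for named items was NUP210 with its listed events, nucleoporin genes with a called event (up to 10 per comparison) and the 5 nearest A5SS events. Annotation and exon sequence come from GENCODE release 29. Python 3.11.15, numpy 2.4.6, pandas 2.3.3, scipy 1.17.1 and matplotlib 3.10.9 were used.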

Additional observations from a re-analysis of the deposited data

How the results depend on the processing

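The compared groups do not overlap at the intron 33 A5SS, so medians or leaving out a library could not change its direction. Only the sizes are given. With medians in place of means the IL-6 difference was 24.7 points, and leaving out each library in turn gave 22.5 to 23.9 points for IL-6 and -49.8 to -48.9 for sgPOU2AF1. The count of called NUP210 entries was 3 with a limit of 5 points. Among the 24 uncalled entries, 0 of 168 alternatives (medians and leaving out each library) moved a difference by over 1 SD, and 13 changed its sign, in 6 entries. Leaving out 1 of 3 libraries cannot move a group mean by 1 SD of that group. The 0 was thus largely fixed in advance and says little about stability. Limma with at least 10 points called 0 NUP210 events in every setting. No setting could have given a call, since differences ran only from -1.86 to 1.34 points with sgSRSF1 and from -0.747 to 1.24 with sgHNRNPL. With clipping at 0.1% from either end, the sgSRSF1 decreases of the intron 20 A5SS at 7018 and 7051 nt had limma adjusted p of 0.00790 and 0.0163, so their call under 0.05 depends on that clip. The nucleoporin genes called, NUP210 included and summed over comparisons, numbered 15, and 36 with 5 points or 5 with 20 points. For sgSRSF1 the 7 became 14 with 5 points, 3 with 20 points and 4 with p under 0.01. For sgHNRNPL the 2 became 5 with 5 points and 0 with 20 points. The same 5 nearest events were found by the largest gap. No paired analysis was possible because the tables list the PSI values of a group without replicate numbers. The titles number the libraries, but no value can be tied to a numbered library. The planned comparison of the lines at the intron 33 A5SS was not run, since no MM.1S table lists it. The comparison of the lines at the intron 1 and intron 20 sites, and that of sgEGFP cells with IL-6-treated cells, were chosen after seeing the data.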

Other observations

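Events called in both the IL-6 and the sgPOU2AF1 tables of INA-6 numbered 41, in 35 genes. These are 7.17% of the 572 distinct IL-6 calls and 5.60% of the 732 distinct sgPOU2AF1 calls, and the comparisons share no libraries. Of the 41, 22 were higher with IL-6 and lower with sgPOU2AF1, 15 were lower with IL-6 and higher with sgPOU2AF1, 2 were higher in both and 2 lower in both. All 11 called alternative 5' splice sites among them had opposite signs, as did 70 of the 74 with a p-value in both tables, NUP210 included. Some of these sites, such as the CDK14 pair, belong to the same gene and have the same values, so they are not independent. NUP210 ranked 2 among the 41 by increase with IL-6 and 1 by size with sgPOU2AF1, which are the values by which it was chosen. The sgPOU2AF1 cells and their controls were both kept with IL-6.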
